A study of Mus musculus with 6 samples.

Results

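Cytosine arabinoside (AraC) is a cytidine analogue that cells must take up, phosphorylate and build into new DNA before it can act. The genes examined here are 10 loci of that route, namely Slc29a1, Dck, Cda, Samhd1, Rrm1, Rrm2, Tk1, Pola2, Pold1 and Pole, out of 21951 protein-coding genes in the GENCODE annotation of mouse build mm10. They were chosen by name for their roles, with earlier results of these data known. Each gene was placed in the 500 kb bin that holds its transcription start site (TSS). The 10 genes fell in 10 different bins of the 5272 bins used, and all 10 bins had data in every condition. Values of all 20360 autosomal protein-coding genes with a value in every condition are given beside them.

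The cells were C2C12, a myoblast line first grown out of crush-injured thigh muscle of C3H mice. Genome organization was captured by Hi-C, in which cross-linked chromatin is cut with HindIII, neighbouring ends are ligated and the junctions are sequenced, in 2 replicate libraries for each of 3 conditions. All cultures first grew for 72 h, and per the study's methods those meant for myotubes were plated more densely. Myoblasts were then harvested without a change to differentiation medium. Myotubes were harvested after 3 further days in differentiation medium with horse serum, both without AraC. AraC-treated myotubes had the same 3 days, were then kept in differentiation medium with 10 µg/mL AraC and were harvested on day 7, and "after AraC" below stands for these cultures. All conditions share 1 cell line, the myotube cultures still held myoblasts, and no day 7 culture without AraC is among the samples, so AraC, the later day and the loss of myoblasts cannot be told apart. Replicates were pooled before deposit, so each value below comes from 1 pooled matrix per condition, and no SD, test or p-value between conditions can be given. The labels give no genotype or strain beyond the line's origin.

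Inside the cell, AraC enters through nucleoside transporters and is phosphorylated by deoxycytidine kinase to a monophosphate, which other kinases carry on to the triphosphate. Cytidine deaminase inactivates the nucleoside and SAMHD1 hydrolyses the triphosphate. Ribonucleotide reductase makes the deoxynucleotides that compete with it, and the replicative polymerases put it into DNA. Cells that copy their genome are therefore the sensitive ones, and myotubes have left the cell cycle.

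Hi-C reports on the chromatin around these genes and not on their transcripts. On a large scale, chromosomes divide into an A compartment, rich in genes and active chromatin, and a B compartment, poor in genes and largely inactive, and regions of like compartment contact each other more often. The deposited value for a pair of bins is the correlation coefficient of their normalised interaction profiles. The first principal component (PC1) of these values along each chromosome separates A, with positive PC1, from B, with negative PC1. Its 0 is the mean of the chromosome, so the sign of a value close to 0 depends on how the matrix is centred. PC1 was divided by its SD over autosomal bins of the same condition, because that SD differed between conditions. It was 0.859 in myoblasts, 1.61 in myotubes and 1.36 after AraC. All PC1 values below are in these SD units unless another scale is named.

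Hi-C sees a gene through the HindIII fragments that it was cut into. The fragment that holds the start site of Rrm1 spans 8345 bp, that of Rrm2 11832 bp and that of Pole 4014 bp. These are 3 of the genes whose PC1 differed most between myoblasts and myotubes, and their fragment ends are shown for that reason. Each sequence is the GRCm38 plus strand, with the HindIII site that is cut and ligated in capitals.
Rrm1 left end, between genes, chr7:102440292-102440321: atttgtctctatAAGCTTggcttattatga
Rrm1 right end, in an intron of Rrm1, chr7:102448637-102448666: tttgacagacagAAGCTTttagataatatt
Rrm2 left end, between genes, chr12:24703529-24703558: aagactcagcccAAGCTTgcagagtccaaa
Rrm2 right end, between genes, chr12:24715361-24715390: tccccttctgacAAGCTTatataagggtac
Pole left end, in an intron of Pxmp2, chr5:110282476-110282505: tattattcttggAAGCTTttgtggagtttg
Pole right end, in an intron of Pole, chr5:110286490-110286519: cgcggccggagcAAGCTTgggcgggcgcgg
The right end of the Pole fragment lies 196 bp from the Pole start site, in a sequence made almost wholly of G and C around the site. A 500 kb bin holds many such fragments. The bins of the 10 genes had between 113 and 160 HindIII sites, with a median of 136 against 162 over all autosomal bins. They were also rich in G and C, with a median of 48.0% against 41.7% over autosomal bins and 44.5% over the bins of all genes. The bins held between 6 and 25 protein-coding start sites, with a median of 12.5 against 9 over the bins of all genes. A value below therefore describes a gene-rich stretch and not the named gene alone.

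Most of these genes lay in the A compartment, and none changed compartment in any comparison where the matrix was centred. Of all autosomal genes 7.4% changed sign from myoblasts to myotubes, 4.58% from myotubes to AraC-treated myotubes and 9.61% from myoblasts to AraC-treated myotubes. With 10 genes, a count of 0 is near these shares and is no result about these genes. Without centring, Rrm1 had PC1 of -0.123 in myoblasts before division by the SD, against 0.167 with centring. Without centring 7 genes thus lay in A in myoblasts and 1 changed sign to both later conditions. With centring, 8 of the 10 genes had positive PC1 in each of the 3 conditions, while 60.1% of all autosomal genes did in myoblasts, 58.3% in myotubes and 57.3% after AraC. Dck and Rrm2 were the exceptions and had negative PC1 in every condition. With 10 genes, 8 in A is not far from the share of all genes and is no result about these genes. The median PC1 of the 10 genes was 1.56 in myoblasts, 1.47 in myotubes and 1.36 after AraC, against 0.369, 0.362 and 0.397 over all genes.

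**Figure D1:**
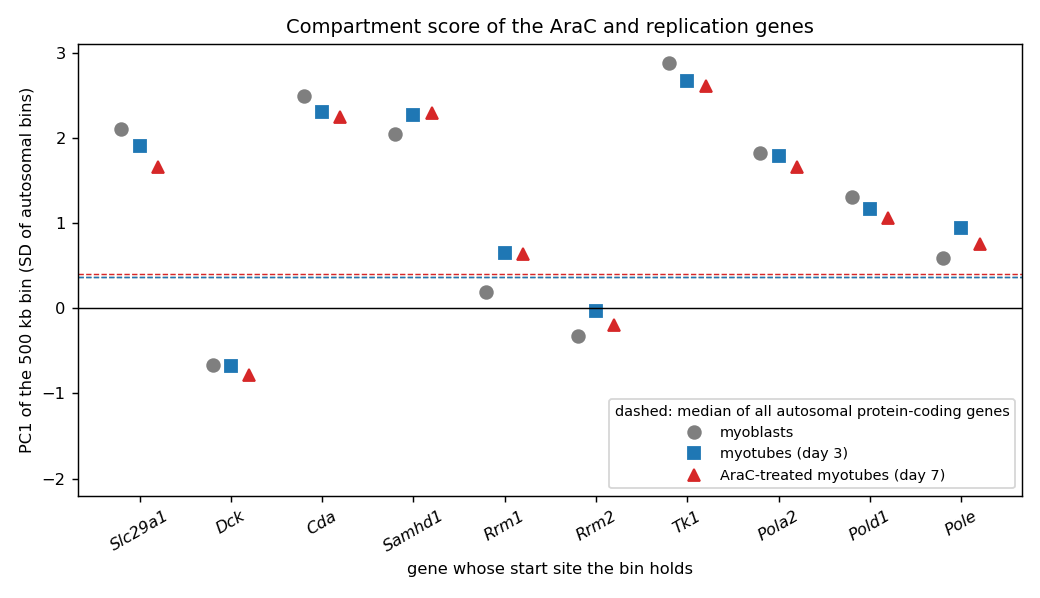
PC1 of the 500 kb bin of each gene, in SD of autosomal bins, with a point for each condition and dashed lines at the median of all autosomal genes. Dck and Rrm2 sit below 0 in all 3 conditions, Rrm1 and Pole sit lowest among the genes above 0, and Tk1 sits highest at 2.87, 2.66 and 2.61.

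The uptake gene came first along the route. Slc29a1 encodes the equilibrative nucleoside transporter ENT1, which carries AraC through the plasma membrane, and lies at chr17:45585200-45599606 on the minus strand. Its PC1 was 2.10 in myoblasts, 1.91 in myotubes and 1.66 after AraC, so the scaled value was lower in each later condition while the locus stayed firmly in A. The A stretch around it covered chr17:43500001-48000000 in myoblasts and myotubes and was 4 Mb long rather than 4.5 Mb in AraC-treated myotubes. Its closest neighbour was Mymx, which encodes the small membrane protein myomixer that drives myoblast fusion, with start sites 2.50 kb apart. Hsp90ab1, a chaperone gene, and Slc35b2, a transporter gene, were the next nearest. A muscle gene and the AraC transporter gene thus share every value given for this bin.

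Dck encodes deoxycytidine kinase, which adds the first phosphate to AraC, and lies at chr5:88764996-88783281 on the plus strand. Its PC1 was -0.668 in myoblasts, -0.676 in myotubes and -0.789 after AraC. It was the only gene of the 10 that lay well inside B in every condition. The B stretch around it covered 8.5 Mb in myoblasts and 10 Mb in both later conditions, since bins 2 and 2.5 Mb to its right changed sign. The bin at chr5:91000001-91500000 had PC1 of 0.555 in myoblasts, -0.168 in myotubes and -0.342 after AraC. Dck itself stayed 1.5 Mb or more from the end of the stretch. Its nearest neighbours were Mob1b, a Hippo pathway adaptor gene, Grsf1, which encodes a mitochondrial RNA-binding protein, and Slc4a4, a bicarbonate transporter gene.

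The genes that remove AraC were both firmly in A. Cda encodes cytidine deaminase, which turns the nucleoside into its inactive uracil form, and lies at chr4:138338424-138367992. Its PC1 was 2.48 in myoblasts, 2.30 in myotubes and 2.25 after AraC. Samhd1 encodes the triphosphohydrolase that splits the active triphosphate, and lies at chr2:157097533-157135265. Its PC1 was 2.05, 2.26 and 2.29 in the same order, and on this scale it was the only gene of the 10 whose value was higher in AraC-treated than in untreated myotubes. Without division by the SD, Samhd1 was lower by a difference of -0.532 and Dck was higher by 0.0176. With the SD of the own chromosome Cda, Rrm1 and Pola2 were higher too, by 0.0161, 0.0372 and 0.0455. Cda lay next to Fam43b, Pink1 and Ddost, and Samhd1 shared its bin with Rbl1, which encodes p107, a pocket protein that represses cell cycle genes. The bins beside both genes were in A, and the end of the A stretch was 3.5 Mb away for Cda and 1 Mb away for Samhd1 on the nearer side.

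The deoxynucleotide supply genes were divided between strong A and values near 0. Tk1 encodes cytosolic thymidine kinase, a salvage enzyme of the S phase, and lies at chr11:117815526-117826092. Its PC1 was 2.87 in myoblasts, 2.66 in myotubes and 2.61 after AraC, the highest of the 10 genes in each condition. Its start site lay 0.168 kb from that of Afmid, an arylformamidase gene.

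Rrm1 encodes the large subunit of ribonucleotide reductase and lies at chr7:102441695-102469771. Its PC1 was 0.194 in myoblasts, 0.645 in myotubes and 0.639 after AraC. It lay in the last A bin before a B stretch rich in olfactory receptor genes, which encode the odorant receptors of the nose. The neighbouring bin, chr7:102500001-103000000, held 32 start sites, of which 30 were named Olfr, and its PC1 was -0.726, -0.714 and -0.716. The Rrm1 bin itself held 16 start sites, 3 of them Olfr genes, and Olfr543, Olfr544 and Olfr545 were the genes nearest to Rrm1. On the other side PC1 was 1.47, 1.61 and 1.45 in the next bin, so the Rrm1 bin lay on the slope between A and B. In SD units the receptor bin beside it hardly differed between conditions, while the Rrm1 bin was 0.451 higher in myotubes than in myoblasts. Without division by the SD both bins lay further from 0 in the later conditions. The receptor bin then had -0.624, -1.15 and -0.971, and the Rrm1 bin 0.167, 1.04 and 0.867.

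Rrm2 encodes the small subunit, whose level limits the enzyme in cycling cells, and lies at chr12:24708241-24714146. Its PC1 was -0.325 in myoblasts, -0.0346 in myotubes and -0.202 after AraC, so the negative sign rested on small values, above all in myotubes. The 5 bins to its left (chr12:22000001-24500000) had no data in any condition, and the B stretch to its right was 6 Mb or longer. The bin next to it on the right had PC1 of -0.205, -0.347 and -0.518. That bin was lower in each later condition while Rrm2 was not, and Rrm2 had no measured neighbour on its left to set beside it. The nearest genes were Cys1, Klf11 and Mboat2.

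Among the DNA polymerase genes, Pola2 was deep in A and both others were at the edge of an A stretch. Pola2 encodes the second subunit of the polymerase alpha and primase complex, which starts each new strand, and lies at chr19:5940542-5964202. Its PC1 was 1.82 in myoblasts, 1.78 in myotubes and 1.66 after AraC. Pold1 encodes the catalytic subunit of polymerase delta, which copies the lagging strand, and lies at chr7:44532746-44548849. Its PC1 was 1.30, 1.16 and 1.06, and the bin to its left was in B with -0.359, -0.450 and -0.249. Pold1 lay in a bin with 25 start sites, the most of the 10, next to Nr1h2, a nuclear receptor gene, Spib and Napsa.

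Pole encodes the catalytic subunit of polymerase epsilon, which copies the leading strand, and lies at chr5:110286306-110337474. Its PC1 was 0.590 in myoblasts, 0.945 in myotubes and 0.749 after AraC. The start site lay 0.12 kb from that of Pxmp2, a peroxisomal membrane protein gene. The bin to its left was in B with -0.545, -0.687 and -0.606. The A stretch to its right was 2.5 Mb long in myoblasts and myotubes and 6 Mb long in AraC-treated myotubes, as the bin at chr5:112500001-113000000 had PC1 of -0.867, -0.576 and 0.418. The sign thus changed 2.5 Mb to the right of Pole, while the border to its left stayed in place.

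**Figure D2:**
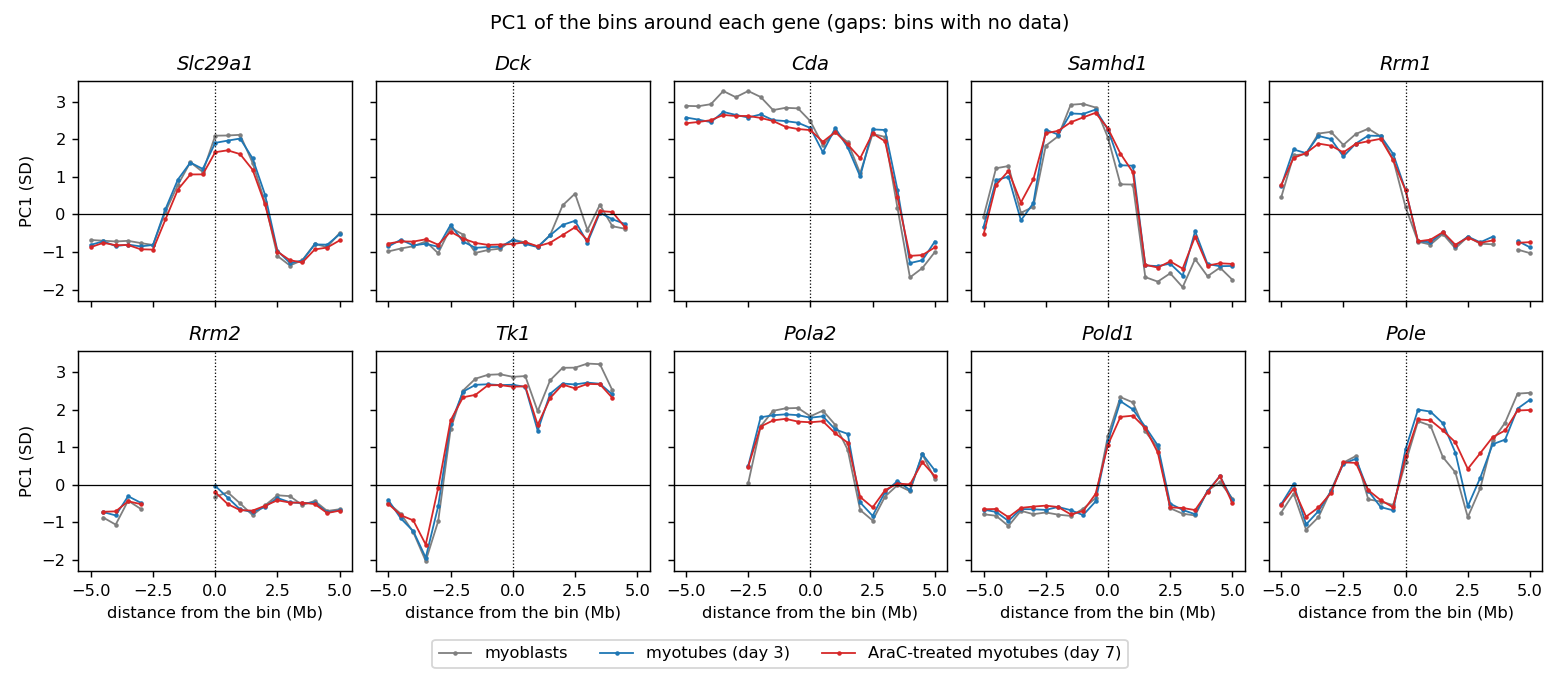
PC1 in SD units of the bins within 5 Mb of each gene, with distance from the gene's bin on the horizontal axis and a line for each condition. Slc29a1, Cda, Samhd1, Tk1 and Pola2 lie on broad A stretches, Rrm1, Pold1 and Pole lie beside a change of sign, and the bins left of Rrm2 have no data.

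A position beside a bin of the opposite sign was not rare. Rrm1, Pold1 and Pole had such a neighbour in every condition, 3 of 10 genes, and so did 31.9% of all autosomal genes in myoblasts, 30.8% in myotubes and 26.2% after AraC.

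From myoblasts to myotubes, 3 genes had higher PC1 by 0.25 or more, the size used here to call a change, and none had PC1 lower by that size. They were Rrm1 at 0.451, Pole at 0.355 and Rrm2 at 0.290. Of all autosomal genes, 14.8% were called higher and 16.2% lower in this comparison, and 7.4% changed sign against 0 of the 10. With 10 genes, counts of 3 and 0 are not far from these shares and are no result about these genes. Rrm1, Pole and Rrm2 were the 3 genes with the smallest absolute PC1 in myoblasts. Samhd1 was higher by 0.217 and was not called. The other 6 genes were lower, with changes from -0.00777 for Dck to -0.211 for Tk1, and the median of the 10 was -0.0228 against -0.00430 over all genes. Where PC1 was recomputed from every other partner bin, Rrm1 was higher by 0.473 on the odd and 0.430 on the even bins, and Pole by 0.371 and 0.340. Rrm2 was higher by 0.352 on the odd bins and by 0.226 on the even bins, which is below the size called. In the mean of each bin with its neighbours 0 genes were called higher and 2 lower, with Rrm1 at 0.203, Pole at 0.174 and Rrm2 at 0.0741. On normal scores of ranks Pole was at 0.149 and was not called. When bins with weak PC1 were left out, 1 of the 8 genes counted was called higher.

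From myotubes to AraC-treated myotubes, the comparison closest to the drug, 0 of the 10 genes were called in either direction and 0 changed sign. Of all autosomal genes, 9.33% were called higher, 10.1% lower and 4.58% changed sign. With 10 genes, a count of 0 or 1 in either direction is near these shares and is no result about these genes. Slc29a1 came nearest to a call with a difference of -0.249, which was -0.284 on odd and -0.215 on even partner bins, and 10.3% of all genes had a change as low or lower. Pole followed with -0.196, Rrm2 with -0.167 and Pola2 with -0.121. Dck was lower by a difference of -0.113, Pold1 by -0.0963, Cda by -0.0560 and Tk1 by -0.0526. Rrm1 differed by -0.00637 and Samhd1 by 0.0286. The values were lower for 9 of the 10 genes, against 59.8% of all genes, but for 6 of the 10 when PC1 was divided by the SD of its own chromosome. The median was -0.105 against -0.0356 over all genes, and -0.0417 against -0.0317 with the SD of the own chromosome.

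Between myoblasts and AraC-treated myotubes, Rrm1 was called higher at 0.445, and Slc29a1 at -0.440 and Tk1 at -0.263 were called lower. Of all autosomal genes 17.7% were called higher, 25.4% lower and 9.61% changed sign, against 0 of the 10 that changed sign. With 10 genes, the counts called are near these shares and are no result about these genes. Samhd1 at 0.245, Pold1 at -0.241 and Cda at -0.237 were just under the size called. This comparison shares its matrices with the other 2 and is no separate evidence. Most of the difference for Rrm1 lay between myoblasts and myotubes (0.451), while Slc29a1 differed by -0.191 in the earlier step and by -0.249 in the later. The lower values depended on the scale. Without division by the SD, 9 of the 10 genes were higher in AraC-treated myotubes, among them Slc29a1 by 0.447, Tk1 by 1.07, Cda by 0.915, Pola2 by 0.690 and Pold1 by 0.321 in units of PC1. On normal scores of ranks Tk1 was higher by 0.0994 and Rrm1 by 0.245, which is below the size called. With the SD of the own chromosome Tk1 differed by -0.199 and was not called.

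**Figure D3:**
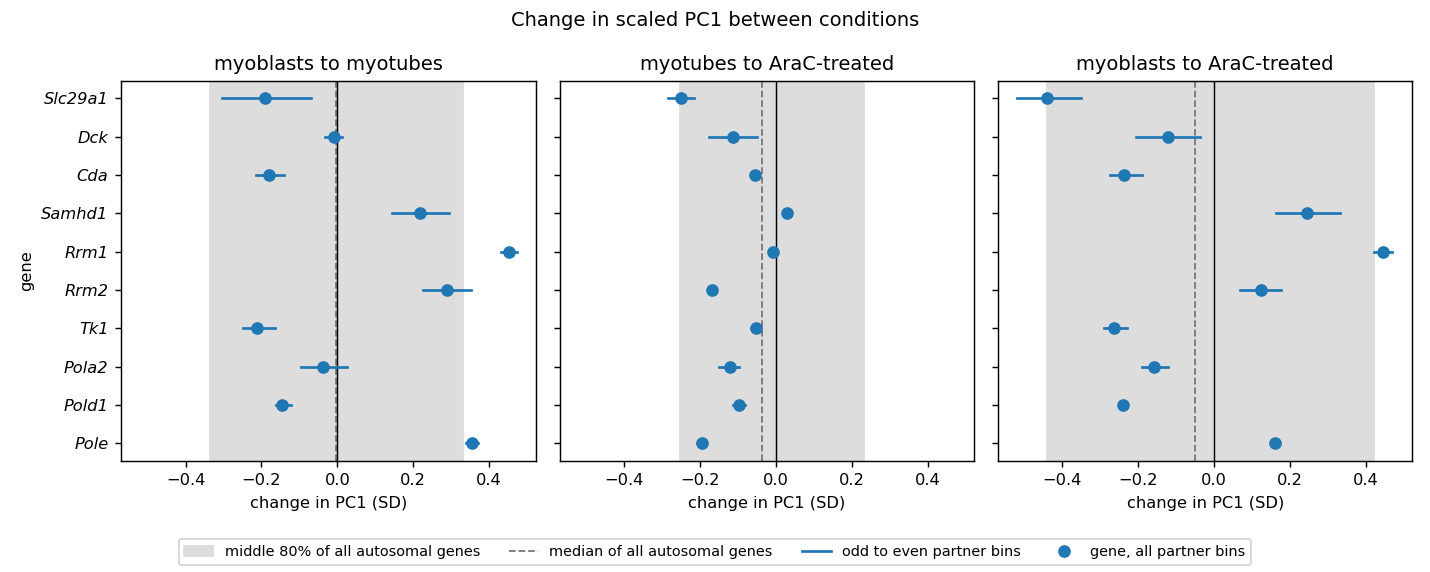
Change in PC1, in SD units, of each gene in the 3 comparisons, with the line joining the values from odd and even partner bins and the grey band holding the middle 80% of all autosomal genes. From myotubes to AraC-treated myotubes all 10 points lie between -0.249 and 0.0286, inside the band, while Rrm1 at 0.451 and Pole at 0.355 lie outside it from myoblasts to myotubes.

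PC1 is a single summary of a profile, so the profile of each bin was also compared directly. The profile correlation is the Pearson *r* that sets a bin's values in 2 conditions against each other across the rest of its chromosome, and a low *r* means that the pattern of partners differed. Rrm1 stood lowest of the 10 in both comparisons with myoblasts, with *r* = 0.119 against myotubes and 0.0274 against the AraC-treated cultures. Between both myotube conditions its *r* was 0.868, the lowest but for Rrm2. Its *r* between myoblasts and myotubes was at the 4.73 percentile of all genes. Against bins of other chromosomes, the same 3 correlations were 0.00575, 0.848 and -0.00407. These use other coefficients, but each coefficient compares whole interaction profiles, so they are no separate evidence. The coefficients of the Rrm1 bin in the myoblast matrix were thus almost uncorrelated with those in either myotube matrix, while both myotube matrices were alike. The matrices also differed as a whole. The median share of variance held by PC1 over autosomes was 39.4% in myoblasts, 71.3% in myotubes and 63.4% after AraC. The part of this difference in the low *r* of Rrm1 was not tested.

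The other 9 genes had *r* of 0.728 or more in every comparison. Rrm2, Pole and, by a small margin, Dck were below the median of all genes in each. Between myotubes and AraC-treated myotubes *r* ran from 0.825 for Rrm2 to 0.992 for Tk1, with Pole at 0.920 and Dck at 0.948. Between myoblasts and myotubes it was 0.777 for Rrm2, 0.803 for Pole, 0.893 for Dck and 0.914 for Pold1, and 0.967 or more for Slc29a1, Cda, Samhd1, Tk1 and Pola2. Between myoblasts and the AraC-treated cultures it was 0.728 for Rrm2 and 0.762 for Pole. Over all 10 genes the median *r* was 0.940 from myoblasts to myotubes, 0.970 for the later step and 0.906 over both steps. The medians of all genes were 0.900, 0.958 and 0.864. None of the 10 was below 0 on its own chromosome, where 3.25%, 0.648% and 4.78% of all genes were. Rrm1 and Rrm2 were also the genes with PC1 nearest to 0 in myoblasts, and the part of counting error in their low *r* was not tested.

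The preference for A over B partners on other autosomes leaves out coefficients with bins of the gene's own chromosome. Each coefficient compares whole interaction profiles, so beside PC1 there is no separate evidence in this preference. It is the mean coefficient with bins that were A in all 3 conditions (1478 bins) minus that with bins that were B in all 3 (2713 bins), divided by the SD of coefficients between autosomes. Rrm1 had no preference in myoblasts, at -0.0745, and preferred A in myotubes at 0.773 and in AraC-treated myotubes at 0.769. Before the division, its mean coefficient with A bins was -0.00133 in myoblasts and 0.0373 in myotubes, and with B bins 0.00200 and -0.0315. Pole stood at 0.761, 1.27 and 1.12, in the same order as its PC1. Rrm2 at -0.776, -0.507 and -0.738 and Dck at -1.20, -1.55 and -1.74 preferred B, and Dck was lower in each later condition. For Slc29a1 the values were 4.36, 4.14 and 3.86, lower in each later condition like its scaled PC1. Tk1 had 4.54, 4.16 and 4.13, Pola2 4.46, 4.37 and 4.20, Cda 3.94, 3.67 and 3.60, and Pold1 2.06, 1.80 and 1.58. Samhd1 again went the other way with 3.21, 3.48 and 3.57. The median over all genes was 0.582, 0.476 and 0.605.

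**Figure D4:**
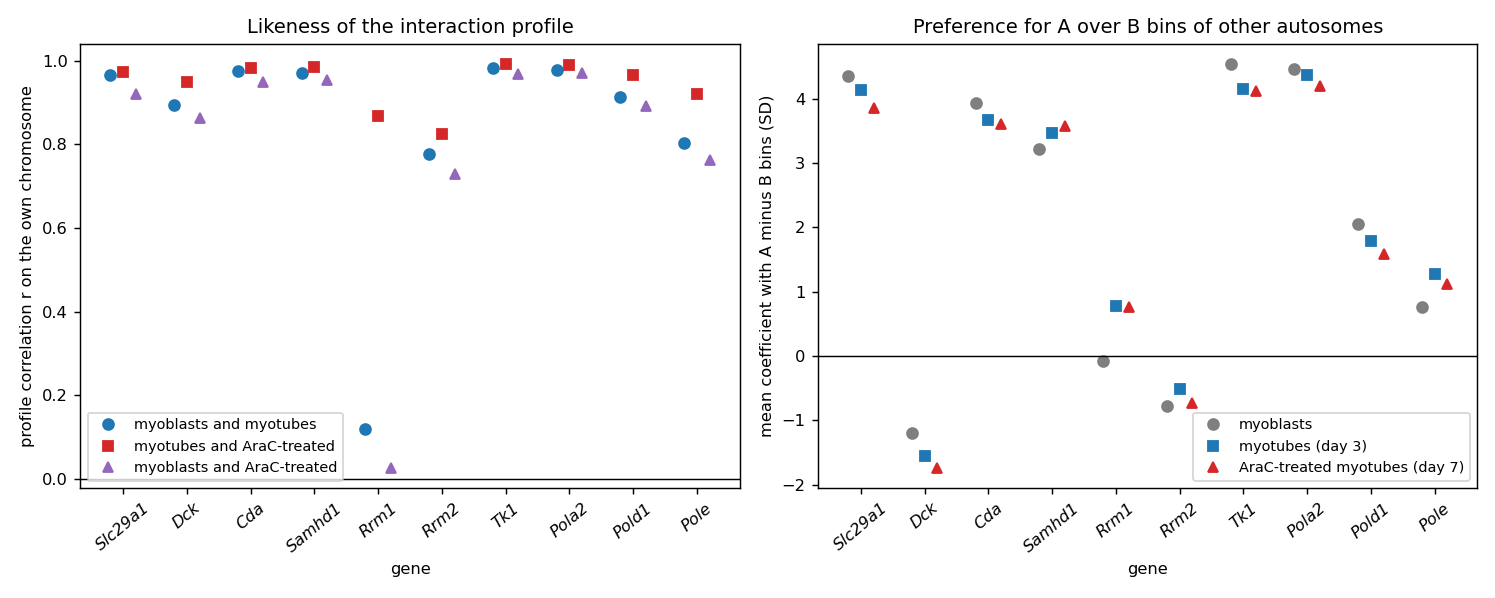
Left, the profile correlation *r* of each gene's bin on its own chromosome for the 3 pairs of conditions. Right, the mean coefficient with A bins minus B bins of other autosomes, in SD of coefficients between autosomes, for each condition. Rrm1 stands apart on the left at 0.119 and 0.0274 in both pairs with myoblasts, and on the right moves from -0.0745 in myoblasts to 0.773 in myotubes.

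The 10 genes form 45 pairs, of which 43 lie on different chromosomes. Over these 43 pairs the mean coefficient was 0.0647 in myoblasts, 0.115 in myotubes and 0.0821 after AraC, against 0.00526, 0.00743 and 0.00306 over all pairs of autosomal bins on different chromosomes. The pairs were then taken by compartment. The 27 pairs of A genes had means of 0.125, 0.222 and 0.169, where all A pairs had 0.0678, 0.117 and 0.0970. Bins of the 10 genes held a median of 12.5 start sites against 2 over all autosomal bins. No A pairs of like gene density or PC1 were set beside them, so the higher means are no result about these genes. The 15 pairs of an A gene with Dck or Rrm2 had means of -0.0423, -0.0721 and -0.0705, and all A and B pairs had -0.0276, -0.0742 and -0.0624. Coefficients were larger in size in myotubes throughout the matrix, with an SD between autosomes of 0.0446, 0.0890 and 0.0732. Divided by that SD, the mean over the 43 pairs was 1.45, 1.29 and 1.12, so the order of the conditions changed with the scale.

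Tk1 and Pola2, a salvage gene and a priming gene on chromosomes 11 and 19, had the highest coefficient of any pair, at 0.300 in myoblasts, 0.533 in myotubes and 0.428 after AraC. Slc29a1 and Pola2 followed closely in myoblasts with 0.299, and Cda and Pola2 in both myotube conditions with 0.502 and 0.375. At the other end, Dck and Tk1 had -0.0928, -0.144 and -0.147, and Dck and Pola2 had -0.0815, -0.165 and -0.129. The bins of Rrm1 and Rrm2, whose proteins form a single enzyme, had coefficients of 0.00171, -0.00199 and 0.00158. The bins of both subunits were thus neither alike nor opposed in their contacts. Rrm1 and Pold1, which share chromosome 7 at 57.5 Mb, had 0.00704, 0.0650 and 0.0646. Dck and Pole, which share chromosome 5 at 21.5 Mb, had -0.0100, -0.0540 and -0.0262.

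**Figure D5:**
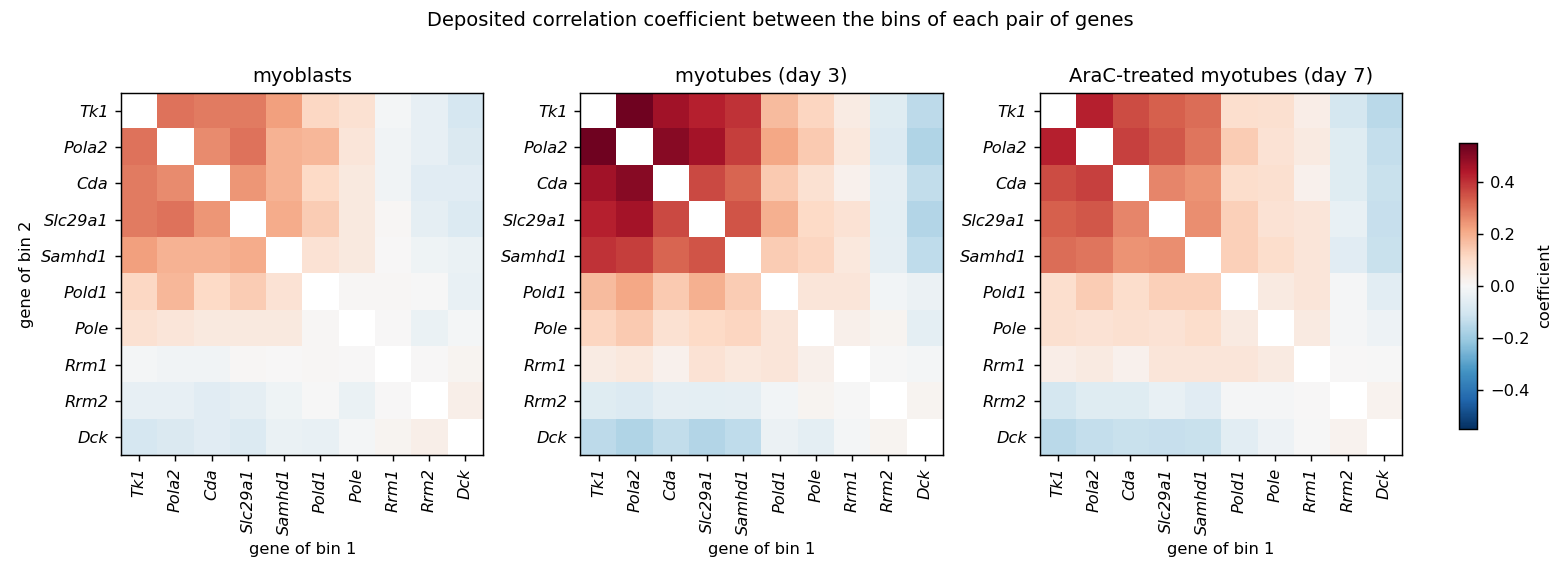
Deposited correlation coefficient between the bins of each pair of genes in the 3 conditions, with genes ordered from Tk1 to Dck and the same colour scale in each panel. Tk1, Pola2, Cda, Slc29a1 and Samhd1 form a positive block, highest for Tk1 and Pola2 at 0.533 in myotubes, and Dck is negative with all 5 of them.

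For each gene, the bin of another chromosome with the highest mean coefficient was also read out. These bins are the top of a long list and are given as a description. The genes named for a bin are its first by position. Pola2 had the strongest partner, chr8:122500001-123000000 with Piezo1, Cdt1 and Aprt, at 0.356, 0.617 and 0.530, and Cdt1 is a factor that loads the replicative helicase. Tk1 was closest to chr15:81000001-81500000 with Mrtfa, Mchr1 and Slc25a17, at 0.368, 0.580 and 0.481. Cda was closest to the bin of Fnbp1, Gpr107 and Ncs1 on chromosome 2, Slc29a1 to that of Atp8b3, Rexo1 and Klf16 on chromosome 10, and Samhd1 to that of Faim2, Aqp2 and Aqp5 on chromosome 15. Pole was closest to chr10:128000001-128500000 with Hsd17b6, Prim1 and Naca, at 0.0821, 0.159 and 0.0888, and Prim1 encodes the catalytic subunit of primase. The bin with Prim1 held 26 protein-coding start sites and that with Cdt1 held 9, and each coefficient belongs to the whole bin. Rrm1 was closest to the bin of Avil, Tsfm and Mettl1 on chromosome 10, at 0.0316, 0.105 and 0.0979, and Pold1 to that of Arhgap45, Polr2e and Gpx4 on the same chromosome. Dck and Rrm2 had neighbouring partners on chromosome 11. That of Dck began with Lcp2 at chr11:34000001-34500000 with 0.0597, 0.137 and 0.109, and that of Rrm2 held Ranbp17 and Gabrp at chr11:33500001-34000000 with 0.0676, 0.0530 and 0.0704. The partner bins of Dck and Rrm2 were deep in B, with PC1 of -2.24 and -2.02 in myoblasts.

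The wider pathway was followed in 112 further genes of 8 lists, which lay in 109 bins, after 4 listed genes on chromosome X were left out. Of these genes 81 were in A in myoblasts (72.3% against 60.1% of all genes). In myotubes 79 were (70.5% against 58.3%), and after AraC 73 were (65.2% against 57.3%). From myotubes to AraC-treated myotubes 6 were called higher (5.36% against 9.33% of all genes) and 20 lower (17.9% against 10.1%), and the median change was -0.0886 against -0.0356. From myoblasts to myotubes 18 were higher (16.1% against 14.8% of all genes) and 16 lower (14.3% against 16.2%). From myoblasts to AraC-treated myotubes 14 were higher (12.5% against 17.7%) and 29 lower (25.9% against 25.4%), so most of these shares were near those of all genes. The lists were chosen with earlier results of these data known, and the counts are given as a description. They are given in SD units only, and calls depended on the scale. Without division by the SD, 16.8% of all genes were called higher and 41.6% lower from myotubes to AraC-treated myotubes. Each list below is small, and its counts for this later step are to be read against the 9.33% of all genes called higher and 10.1% called lower.

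Among the subunits that work with Pola2, Pold1 and Pole, 4 of 8 were called lower in AraC-treated myotubes and 0 higher, where 10.1% and 9.33% of all genes were. Pole2, the second subunit of polymerase epsilon, had PC1 of 0.540, 0.661 and 0.293 in myoblasts, myotubes and AraC-treated myotubes. Pole3, a histone-fold subunit of the same enzyme, had 0.0828, -0.151 and -0.490, and Pole4, its partner, had -0.370, 0.110 and -0.153 and so changed sign in both steps. The fourth was Pold2, an accessory subunit of polymerase delta, with a difference of -0.308, which shares its bin with Polm of the list of other polymerases.

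Of the 33 replication fork genes 2 were called higher and 2 lower, 6.06% each way against 9.33% and 10.1% of all genes. Mcm7, a subunit of the replicative helicase, had the largest upward difference of all listed genes, with PC1 of -0.103, 0.0586 and 0.688. Orc4, of the origin recognition complex, had -0.0252, -0.263 and 0.0424 and changed sign, and Gins3, of the helicase complex, went from 0.0889 to -0.197. Rpa3, of the single-strand binding complex, changed sign with a difference of -0.156 that was not called.

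Among 15 genes of breakdown and dephosphorylation 4 were called lower (26.7% against 10.1% of all genes) and 1 higher (6.67% against 9.33%). Nt5e, the ecto-5'-nucleotidase, went from 0.382 to -0.0506 and Tymp, thymidine phosphorylase, from 0.206 to -0.144, both across 0. Nt5c1b, a cytosolic 5'-nucleotidase gene, was lower by a difference of -0.410, and Nt5c3b was higher by 0.256. Of the 10 further kinase genes 1 was called, Dtymk, which encodes thymidylate kinase, with 0.842, 1.21 and 0.683. Of 9 transport and efflux genes 1 was called lower, the efflux pump gene Abcc10 at -0.258, and of 8 nucleotide supply genes 1 was called higher, Ctps, CTP synthase, with 0.344, 0.710 and 1.10.

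Among 14 other polymerases 4 were called lower (28.6% against 10.1% of all genes) and 1 higher (7.14% against 9.33%). Of those called lower, Polm shares the bin of Pold2 and Polh that of Abcc10. Both bins were thus already counted in other lists. Polb, the base excision repair polymerase, differed by -0.338, Primpol by -0.323 and Rev1 by 0.258. Among 15 checkpoint and damage response genes 4 were again called lower (26.7%) and 1 higher (6.67%). Gadd45a, a stress response gene, went from 0.0607 to -0.256 and Chek1, the checkpoint kinase, from -0.504 to -0.816. Atr, whose kinase activates Chek1, went from 0.0527 to -0.0677 across 0, a difference of -0.120 that was not called. Tdp1, which clears blocked DNA ends, was higher by 0.267.

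The labelled cell types can be set against marker loci only by compartment, because Hi-C measures no RNA. Of 8 muscle loci 5 were in A in myoblasts and 6 in both myotube conditions, where Ttn, which encodes the sarcomere protein titin, went from -0.152 to 1.43 and 1.60. Mef2c and Myh3 were in B throughout. Of 5 loci of proliferating myoblasts 3 were in A in each condition, and of 3 fibroblast loci 2 were. Of all autosomal genes 60.1%, 58.3% and 57.3% were in A in myoblasts, myotubes and AraC-treated myotubes. With so few loci, the marker counts are no result about the cell types. The part of remaining myoblasts in the differences of the 10 genes was not tested.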

How the data were processed

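Hi-C was made from 6 C2C12 libraries. Per the study's methods and the labels, reads were mapped with Bowtie in HiCUP, filtered to unique di-tags, pooled over replicates and normalized in HOMER (versions of Bowtie and HOMER are not given in the sources used here). The authors deposited 1 matrix per condition, whose score is a correlation coefficient between the normalized interaction profiles of 500 kb bins. A coefficient carries no di-tag count, so the depth behind each value is unknown. Columns of 183 bins outside chromosomes 1 to 19 and X were not used.

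PC1 came from a principal component analysis of each chromosome's own block, centred by column and signed by the number of protein-coding TSSs per bin, in Python 3.11.15 with NumPy 2.4.6 and SciPy 1.17.1, with plots in Matplotlib 3.10.9. Genes were placed with GENCODE vM21 on GRCm38, whose chromosome lengths fit the bins. A change of 0.25 SD was called. The steps were tested on simulated matrices.

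The 10 genes, the lists and the marker loci were chosen with earlier results of these data known. Named genes were the 10 genes, their 3 nearest genes, genes of the top partner bin, and per list up to 2 called higher, 2 called lower and 2 that changed sign from myotubes to AraC-treated myotubes. Alternatives in centring, partner bins, gene placement, scale and size called are given with the limits.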

Additional observations from a re-analysis of the deposited data

How the results depend on the processing

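No paired analysis was possible because replicates were pooled before deposit, and leaving out a replicate was not run for the same reason. Under the alternatives, 145 values of the main comparisons stayed within the tolerance and 38 moved, and 568 values of single genes stayed, 57 moved and 5 reversed. A size of 0.1, or 1.5 times for counts, was the tolerance, and the cause of a move was not tested unless the alternative is itself the cause.

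From myoblasts to myotubes, the count called higher was 0 with the mean of neighbouring bins, 1 without weak PC1 (below the 20th percentile of its chromosome in size), 8 without division by the SD and 0 at a size of 0.5. The count called lower was 2 from other chromosomes and with neighbouring bins, and 1 without centring, from even partner bins, without division and at 0.2. From myotubes to AraC-treated myotubes, 1 gene was called lower from other chromosomes, from odd partner bins, with the SD of the own chromosome, with normal scores and at 0.2, and 7 without division. From myoblasts to AraC-treated myotubes, the count higher was 2 from odd partner bins, with the SD of the own chromosome, with the median of all genes subtracted and at 0.2, 0 without weak PC1 and at 0.5, and 8 without division. The count lower was 1 with the SD of the own chromosome, without division and with the median subtracted, 4 at 0.2 and 0 at 0.5.

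The medians without division were 1.14, -0.518 and 0.600 in the 3 comparisons, where the median of all genes moved to 0.299, -0.120 and 0.145. Of genes called, 59.6%, 28.8% and 61.3% were then higher, against 47.8%, 47.9% and 41.0%. With the SD of the own chromosome the median from myoblasts to AraC-treated myotubes was -0.0342. Without centring, undivided PC1 of Rrm1 in myoblasts was -0.123 against 0.167 with centring, so that 1 gene changed sign to both later conditions. Slc29a1 and Tk1 from myoblasts to AraC-treated myotubes reversed to 0.447 and 1.07 without division, and Tk1 to 0.0994 with normal scores. The profile correlation of Rrm1 between myoblasts and AraC-treated myotubes reversed to -0.00407 over other chromosomes. The mean over pairs was 1.45, 1.29 and 1.12 after division by the SD between chromosomes, and 0.0761 in myotubes with bins shifted by 1 to the left.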
